A study of Mus musculus with 6 samples.

Results

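The 35 genes described here are interferon-stimulated genes, measured by droplet single-cell RNA sequencing in cells of the mouse Achilles tendon. They were chosen by name, as known targets of interferon signalling; the rule uses no measured value, but earlier results of these data were known when the list was made. All 35 were present in the deposited tables, and each was detected in the tendon cells of all 6 libraries. Interferons are secreted proteins that bind receptors on the cell surface. The receptors' kinases then phosphorylate STAT proteins, and a complex that holds STAT2 and IRF9 enters the nucleus and switches on a shared set of antiviral and antigen-presentation genes through a DNA element called the interferon-stimulated response element (ISRE). Interferon gamma acts mainly through another element, the gamma-activated sequence (GAS). Endothelial cells, leukocytes and fibroblasts all carry these receptors, and many of the target genes are also transcribed at a low level when no infection is present.

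All mice carried *Gli1*-CreERT2 and the Ai9 reporter and had been given tamoxifen, so cells in which the *Gli1* promoter was active at that time, and their descendants, carry the red reporter. Tendons were uninjured, or were taken 7 or 21 days post injury (dpi) by Achilles tenotomy, and sorted into *Gli1*+ and *Gli1*- cells. The labels give 8 mice pooled at each time and 24 in all. Each of the 6 conditions was 1 library, so no condition had a replicate and no test between conditions was made. The intervals given are exact 95% intervals for counting error only, and pooled mice cannot be told apart. After filtering, 7057 to 10882 cells per library remained, with medians of 4297 to 9775 unique molecular identifiers (UMIs, 1 per captured RNA molecule) per cell.

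Cells were typed by single genes. A cell with a *Pdgfra* UMI and none of *Cdh5* or *Ptprc* was taken as a tendon mesenchymal cell (*Pdgfra* cell), and *Cdh5* (endothelial) and *Ptprc* (leukocyte) cells were defined in the same way. The libraries held 1558, 4674 and 5188 *Pdgfra* cells in *Gli1*+ at 0 (uninjured), 7 and 21 dpi and 4255, 5930 and 5071 in *Gli1*-. In every library these cells carried all 7 mesenchymal markers checked, among them the collagen genes, at a summed 29143 to 53766 UMIs per 1000000 UMIs of the same cells (CPM, the unit of all levels below). *Pdgfra* itself is among these markers and is present by definition. *Cdh5* cells numbered 426, 164 and 305 in *Gli1*+ and 3394, 980 and 1691 in *Gli1*-.

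Several properties of the libraries bear on every value below. *Gli1* itself stood at 15.1, 1.91 and 3.64 CPM in *Pdgfra* cells of the uninjured, 7 dpi and 21 dpi libraries labelled *Gli1*+ and at 8.84, 2.5 and 4.05 in those labelled *Gli1*-, so that the transcript was higher under the *Gli1*+ label only in uninjured tendon; the reporter marks descent and need not follow the transcript. The uninjured *Gli1*+ library held 3710 *Ptprc* cells, whereas the other 5 held at most 19. Although the labels state equal numbers of both sexes, the *Pdgfra* cells of both 7 dpi libraries and of the uninjured *Gli1*- library that could be typed were nearly all male (3592, 4578 and 3069 male cells against 0, 1 and 0 female). Those of the *Gli1*+ and *Gli1*- libraries at 21 dpi were nearly all female (4898 and 4817 against 5 and 2 male), and those of the uninjured *Gli1*+ library were 990 female and 369 male. Keratin RNA was widespread in the 7 dpi *Gli1*+ library, where 14 of 4674 *Pdgfra* cells had no *Krt5* or *Krt14* UMI. The libraries also differed in *Cntn5*, in both types of cell. In *Pdgfra* cells it stood at 3.01, 158 and 0.26 in *Gli1*+ and at 487, 185 and 0.33 in *Gli1*-. In *Cdh5* cells it stood at 1.37, 264 and 0 and at 920, 403 and 0.35. The uninjured libraries thus differed in it as well as in sex, so they do not show the same mix of mice, and the reason was not tested. Pairs of libraries shared 15 to 32 cell barcodes.

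To show the sequences through which such genes are controlled, the 250 bases before each annotated start were searched in the RefSeq promoter table (GRCm38.p6), which held 27 of the 35 genes. A gene was counted when any of its annotated starts had a match. The ISRE was searched as GAAA, any 2 bases and GAAA (TTTC, any 2 bases and TTTC on the other strand) and the GAS as TTCNNNGAA, which reads the same on both strands. An ISRE match was found in 12 of the 27 genes (44.4%) and in 3.46% of all 27025 genes of the table. A GAS match was found in 7 of 27 (25.9%) and in 8.13% of all genes. The 12 with an ISRE match were *Isg15*, *Ifit1*, *Ifit3*, *Ifit3b*, *Stat2*, *Oas1a*, *Bst2*, *Rsad2*, *Gbp2*, *Gbp3*, *Gbp7* and *Trim30a*. *Irf1*, *Ifit2*, *Gbp3* and *Trim30a* each had another annotated start with neither match, and for *Irf1* the start with the match is printed below. A match is only a run of letters and does not show binding in these cells. The promoters of 6 genes are printed because the levels of their genes carry the results that follow: *Isg15* (chr4:156200819-156201018, minus strand, with 3 overlapping ISRE matches starting 78, 72 and 66 bases before the start), *Ifit1* (chr19:34640689-34640888, plus strand), *Ifit3* (chr19:34583329-34583528, plus strand), *Gbp2* (chr3:142620463-142620662, plus strand), *Bst2* (chr8:71537473-71537672, minus strand, with a GAS match that overlaps 1 of 2 ISRE matches) and *Irf1* (chr11:53769814-53770013, plus strand, with a GAS match 90 bases before the start and no ISRE match). Each is the 200 bases before the start, written 5′ to 3′ on the strand of the gene, with the matches in capitals.
*Isg15*: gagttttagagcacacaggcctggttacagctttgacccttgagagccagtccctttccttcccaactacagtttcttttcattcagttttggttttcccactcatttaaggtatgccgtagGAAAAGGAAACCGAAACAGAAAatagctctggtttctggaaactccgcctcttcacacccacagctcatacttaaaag
*Ifit1*: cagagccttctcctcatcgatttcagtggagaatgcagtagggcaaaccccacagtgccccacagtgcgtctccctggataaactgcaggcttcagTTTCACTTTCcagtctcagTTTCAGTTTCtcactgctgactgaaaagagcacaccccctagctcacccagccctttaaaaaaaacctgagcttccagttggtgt
*Ifit3*: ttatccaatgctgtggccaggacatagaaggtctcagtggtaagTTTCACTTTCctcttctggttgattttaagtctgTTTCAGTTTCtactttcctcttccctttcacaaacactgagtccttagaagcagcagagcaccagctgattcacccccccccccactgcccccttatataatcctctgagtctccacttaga
*Gbp2*: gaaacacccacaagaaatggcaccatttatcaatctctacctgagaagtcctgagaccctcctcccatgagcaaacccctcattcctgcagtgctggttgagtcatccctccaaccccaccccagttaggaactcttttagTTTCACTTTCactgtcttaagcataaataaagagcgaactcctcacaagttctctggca
*Bst2*: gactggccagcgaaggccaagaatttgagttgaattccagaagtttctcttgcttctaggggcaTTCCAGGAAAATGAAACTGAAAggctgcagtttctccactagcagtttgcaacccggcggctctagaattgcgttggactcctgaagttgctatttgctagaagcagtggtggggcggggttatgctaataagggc
*Irf1*: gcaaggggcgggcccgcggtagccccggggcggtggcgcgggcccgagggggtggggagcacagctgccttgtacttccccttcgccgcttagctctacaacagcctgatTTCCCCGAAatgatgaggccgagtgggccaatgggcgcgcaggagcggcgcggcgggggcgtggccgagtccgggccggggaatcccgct

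In *Pdgfra* cells the interferon-stimulated genes as a group were lower at 21 dpi than in uninjured tendon, in both sorted fractions, while at 7 dpi individual genes went in opposite directions. A gene was called higher or lower when its CPM differed at least 2-fold between 2 libraries, with at least 50 UMIs over both and a counting interval that excluded equality. At 21 dpi, 22 of the 32 members with enough UMIs were lower in *Gli1*+ cells and none was higher, against 17% of all genes lower and 8.64% higher. In *Gli1*- cells 28 of 35 were lower and none was higher, against 15.1% and 12.8% of all genes. At 7 dpi, 7 of 34 members were higher and 6 lower in *Gli1*+ cells (14% and 17.7% of all genes), and 3 of 35 were higher and 6 lower in *Gli1*- cells (14.1% and 14.8%). The member medians of the log2 ratio to uninjured were 0.41 and 0.16 at 7 dpi and -1.69 and -1.94 at 21 dpi in *Gli1*+ and *Gli1*- cells, beside medians of -0.12, -0.07, -0.25 and -0.10 over all genes tested. Other marker lists were also lower in the *Pdgfra* cells at 21 dpi than in uninjured tendon. Endothelial markers summed to 27.7 against 120.5 CPM in *Gli1*+ cells and to 63.6 against 199 in *Gli1*- cells, and immune markers to 12.1 against 51.4 and to 10.6 against 20.6, with *Cdh5* and *Ptprc* at 0 by definition. A list of 10 dissociation-stress genes, immediate-early and heat-shock genes that respond to tissue digestion, summed to 14649 against 25206 and to 13521 against 31856. The part of these in the member values was not tested.

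**Figure D1:**
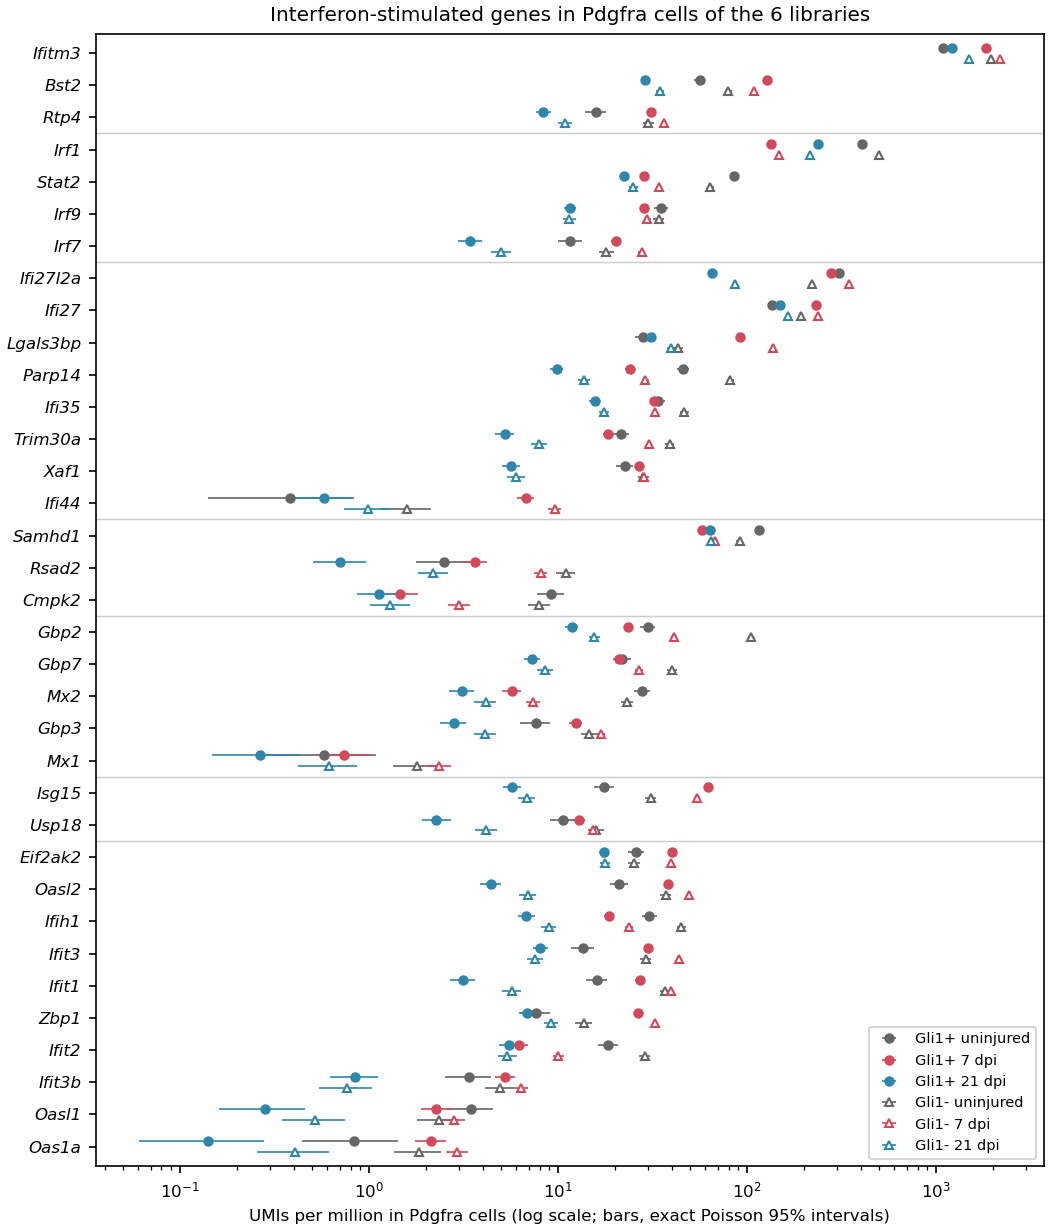
Level of each member in *Pdgfra* cells of the 6 libraries, in CPM on a log axis, with genes grouped by role between the grey lines; points are *Gli1*+ (filled circles) and *Gli1*- (open triangles) libraries and bars are exact Poisson 95% intervals. For *Isg15* the 21 dpi libraries (5.72 and 6.84) sit left of the uninjured (17.6 and 30.9) and 7 dpi libraries (62.3 and 54.4), whereas *Ifitm3* spans 1089 to 2186 over all 6.

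The ratios depend on how the libraries are scaled. Scaling by trimmed means of M values, which assumes that most genes are equal, would move every log2 ratio to uninjured up by 0.25 and 0.39 (*Gli1*+, 7 and 21 dpi) and by 0.11 and 0.17 (*Gli1*-). Under it 12 members were higher and 5 lower in *Gli1*+ cells at 7 dpi, in place of 7 and 6, while 19.1% of all genes were higher and 12.9% lower, and the member medians became 0.66, -1.29, 0.26 and -1.77. The genes that turn sign under it are *Ifi27l2a*, *Ifi35*, *Gbp7* and *Trim30a* (*Gli1*+, 7 dpi), *Zbp1* (*Gli1*+, 21 dpi), *Usp18* (*Gli1*-, 7 dpi) and *Lgals3bp* (*Gli1*-, 21 dpi).

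Among the 4 transcription factors, *Irf7*, which amplifies the interferon response, and the other 3 differed in direction at 7 dpi. *Irf1*, an early-response factor that drives antigen-presentation genes, was counted at 407, 133 and 236 CPM in *Gli1*+ *Pdgfra* cells at 0, 7 and 21 dpi. The *Gli1*- values were 497, 147 and 215. Both uninjured libraries were thus the highest, and the 7 dpi libraries the lowest, with log2 ratios to uninjured of -1.61 (-1.66 to -1.56) and -1.76 (-1.80 to -1.72) at 7 dpi. The dissociation-stress list had the same order between uninjured and injured libraries, with sums of 25206, 11759 and 14649 for *Gli1*+ and 31856, 13025 and 13521 for *Gli1*- cells. Its part in the *Irf1* values was not tested. *Stat2*, a subunit of the factor that binds the ISRE, stood at 85.9, 28.6 and 22.4 in *Gli1*+ cells and at 64.0, 34.2 and 25.1 in *Gli1*- cells, so the injured libraries were all below the uninjured ones. *Irf9*, the DNA-binding subunit of the same factor, stood at 35.2, 28.6 and 11.6 and at 34.0, 29.7 and 11.5, with the 21 dpi libraries the lowest. *Irf7* stood at 11.6, 20.3 and 3.44 and at 18.0, 27.8 and 5.0, highest at 7 dpi and lowest at 21 dpi in both fractions. At 21 dpi 3 of these 4 factors were lower at least 2-fold in *Gli1*+ cells (17% of all genes) and all 4 in *Gli1*- cells (15.1%).

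*Isg15* encodes a ubiquitin-like protein that is attached to other proteins in the interferon response, and *Usp18* the protease that removes it. *Isg15* was counted at 17.6 (15.6 to 19.8), 62.3 (60.3 to 64.5) and 5.72 (5.11 to 6.38) CPM in *Gli1*+ cells and at 30.9, 54.4 and 6.84 in *Gli1*- cells. The 7 dpi libraries were the highest and the 21 dpi libraries the lowest in each fraction. For *Gli1*+ cells the 7 dpi log2 ratio to uninjured was 1.82 (1.65 to 2.01) and the 21 dpi ratio -1.62 (-1.86 to -1.39). For *Gli1*- cells the ratios were 0.82 (0.71 to 0.92) and -2.18 (-2.36 to -2.0). *Usp18* differed little between uninjured and 7 dpi libraries (10.6 and 12.9, and 15.9 and 15.4) and was lower at 21 dpi (2.28 and 4.16).

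The 10 genes of RNA binding and sensing split at 7 dpi. *Ifit1*, *Ifit2*, *Ifit3* and *Ifit3b* encode tetratricopeptide proteins, some of which bind viral RNA and block its translation. *Ifit1* stood at 16.1, 27.0 and 3.14 in *Gli1*+ and at 36.8, 39.8 and 5.68 in *Gli1*- cells, and *Ifit3* at 13.5, 30.04 and 8.08 and at 29.1, 43.7 and 7.58. *Ifit2*, their neighbour in the same gene cluster, had the opposite order at 7 dpi, at 18.4, 6.24 and 5.49 and at 28.7, 10.1 and 5.41. Its log2 ratio to uninjured at 7 dpi was -1.56 (-1.79 to -1.33) in *Gli1*+ cells and -1.51 (-1.66 to -1.37) in *Gli1*- cells, where *Ifit3* had 1.15 (0.95 to 1.37) and 0.59 (0.48 to 0.70). For *Ifit3b* the log2 ratio at 21 dpi in *Gli1*- cells was -2.69. *Ifit3* and *Ifit3b* share part of their sequence: 6.57% of the 90-base windows in the last 500 bases of *Ifit3* transcripts were shared with *Ifit3b*, so the split of reads from those windows is uncertain. None of the end windows of *Ifit3b* was shared with another gene.

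*Zbp1*, a sensor of Z-form nucleic acid that can trigger cell death, was among the genes with the largest ratios at 7 dpi. It stood at 7.62, 26.5 and 6.90 in *Gli1*+ cells and at 13.7, 32.7 and 9.21 in *Gli1*- cells. Its 21 dpi level in *Gli1*+ cells was close to the uninjured level, with a log2 ratio of -0.14 (-0.44 to 0.17). *Oasl2*, an oligoadenylate synthetase-like protein, stood at 21.1, 38.4 and 4.41 and at 37.1, 49.1 and 6.95. The related *Oasl1* was rare (3.46, 2.28 and 0.28, then 2.34, 2.81 and 0.52) and had the lowest ratio of any member at 21 dpi in *Gli1*+ cells, -3.61 (-4.52 to -2.79), from 54 and 16 UMIs. Without the cells that carried *Krt5* or *Krt14* UMIs, *Oasl1* stood at 3.41 and 0.52 there, from 47 and 12 UMIs. Another member then had the lowest ratio, -3.18. *Oas1a* had a log2 ratio of 1.36 (0.52 to 2.31) at 7 dpi in *Gli1*+ cells from 13 and 115 UMIs, and 42.3% of the end windows of its transcripts were shared with *Oas1g*, which makes its counts uncertain. *Ifih1*, a sensor of double-stranded RNA, was lower at each step in both fractions, at 30.5, 18.7 and 6.81 and at 44.9, 23.8 and 8.93. *Eif2ak2*, the kinase that halts translation on double-stranded RNA, was highest at 7 dpi (25.9, 40.04 and 17.5, and 25.3, 39.6 and 17.8). At 21 dpi 6 of 9 of these genes in *Gli1*+ cells (17% of all genes) and 8 of 10 in *Gli1*- cells (15.1%) were lower at least 2-fold.

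**Figure D2:**
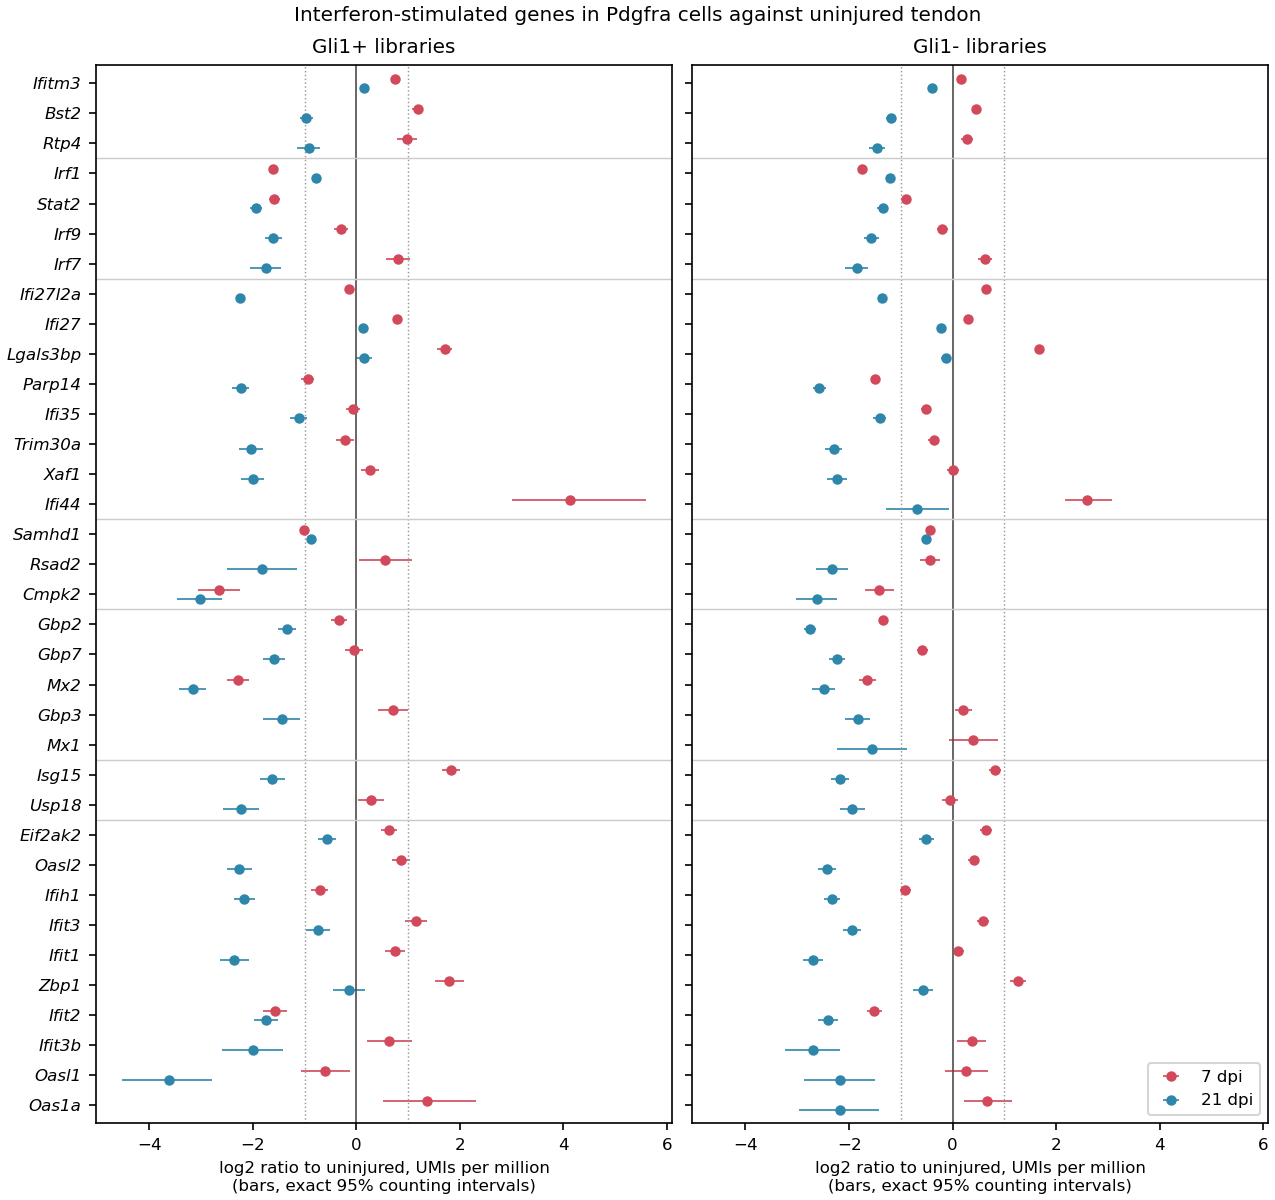
Log2 ratio to the uninjured library of the same fraction, in CPM of *Pdgfra* cells, for 7 dpi (red) and 21 dpi (blue); genes with under 50 UMIs over both libraries are left out, bars are exact 95% counting intervals, and dotted lines mark 2-fold. The 21 dpi points lie left of 0 for 29 of 32 genes in *Gli1*+ and for 35 of 35 in *Gli1*- cells, while the 7 dpi points lie on both sides, from -2.65 (*Cmpk2*) to 4.13 (*Ifi44*) in *Gli1*+ cells.

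The membrane and budding genes were *Ifitm3*, *Bst2* and *Rtp4*. *Ifitm3*, which blocks fusion of viruses with endosomes, stood at 1089, 1836 and 1209 CPM in *Gli1*+ and at 1962, 2186 and 1485 in *Gli1*- cells. It alone made up 40.6% to 64.6% of the UMIs of all 35 genes in *Pdgfra* cells, so it weighs heavily in sums over all 35. The sum need not follow it. In *Gli1*+ cells at 21 dpi the log2 ratio to uninjured was 0.15 for *Ifitm3* and -0.46 for the sum. *Bst2*, or tetherin, which holds budding virions on the cell surface, stood at 56.4, 128 and 28.9 and at 79.7, 109 and 34.8, highest at 7 dpi and lowest at 21 dpi in both fractions. *Rtp4* stood at 15.9, 31.2 and 8.38 and at 30.02, 36.4 and 10.9. None of the 3 was lower at least 2-fold at 21 dpi in *Gli1*+ cells (17% of all genes), and *Bst2* and *Rtp4* were in *Gli1*- cells (15.1%).

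Of the interferon-inducible GTPases at 21 dpi, 4 of 4 were lower at least 2-fold in *Gli1*+ cells (17% of all genes) and 5 of 5 in *Gli1*- cells (15.1%). *Gbp2*, a guanylate-binding protein that coats intracellular pathogens, stood at 29.8, 23.5 and 11.8 in *Gli1*+ and at 105, 41.2 and 15.5 in *Gli1*- cells. The uninjured *Gli1*- library was far above the other 5. Its 21 dpi log2 ratios were -1.33 (-1.50 to -1.16) for the *Gli1*+ fraction and -2.75 (-2.86 to -2.64) for the *Gli1*- fraction. *Mx2*, a dynamin-like antiviral GTPase, was already lower at 7 dpi, at 27.8, 5.70 and 3.11 and at 23.2, 7.42 and 4.14. *Gbp3* was highest at 7 dpi (7.62, 12.4 and 2.81, and 14.6, 16.8 and 4.10) and *Gbp7* was not (21.8, 21.1 and 7.27, and 40.2, 26.8 and 8.54). *Mx1*, the other gene of the pair, was near the limit of detection, at 0.26 to 0.74 in *Gli1*+ cells and at 0.61 to 2.36 in *Gli1*- cells.

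Of the nucleotide-metabolism genes, *Cmpk2*, a mitochondrial nucleotide kinase that lies beside *Rsad2*, stood at 9.16, 1.46 and 1.13 and at 7.98, 3.0 and 1.30. In the *Gli1*+ fraction its log2 ratios to uninjured were -2.65 (-3.06 to -2.24) at 7 dpi and -3.02 (-3.47 to -2.58) at 21 dpi. *Rsad2*, or viperin, which makes a chain-terminating nucleotide, stood at 2.5, 3.65 and 0.71 in *Gli1*+ and at 11.0, 8.11 and 2.19 in *Gli1*- cells. The 2 neighbours thus had opposite directions at 7 dpi in *Gli1*+ cells, where *Rsad2* had a log2 ratio of 0.55 (0.05 to 1.08) from 39 and 197 UMIs. *Samhd1*, which breaks down deoxynucleotides, stood at 116, 57.9 and 63.5 and at 91.4, 67.7 and 64.4, with little between the injured libraries.

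The remaining 8 genes included the one with the highest ratio at 7 dpi. *Ifi44* was nearly undetected in uninjured *Gli1*+ cells, at 0.38 (6 UMIs), and stood at 6.74 (364 UMIs) at 7 dpi and 0.58 at 21 dpi. Its *Gli1*- values were 1.58, 9.60 and 0.98, so the 7 dpi libraries stood apart in both fractions, with log2 ratios of 4.13 (2.997 to 5.59) and 2.60 (2.16 to 3.08). *Lgals3bp*, a secreted glycoprotein, stood at 28.2, 92.3 and 31.1 and at 43.3, 138 and 39.6, high at 7 dpi, with log2 ratios at 21 dpi of 0.14 (-0.01 to 0.29) and -0.13. *Parp14*, an ADP-ribosyltransferase, was lower at each step (46.1, 24.0 and 9.83, and 81.7, 28.9 and 13.7). *Ifi27l2a* stood at 308, 278 and 65.1 in *Gli1*+ and at 221, 346 and 86.1 in *Gli1*- cells. *Ifi27*, its relative, differed less (136, 233 and 150, and 194, 237 and 166). *Xaf1* stood at 22.6, 27.0 and 5.66 and at 28.3, 28.5 and 6.04, *Ifi35* at 33.9, 32.4 and 15.7 and at 46.6, 32.7 and 17.5, and *Trim30a*, which shared 17.8% of its end windows with *Trim30d*, at 21.4, 18.4 and 5.24 and at 39.0, 30.3 and 7.95.

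From 7 to 21 dpi, 26 members were lower at least 2-fold and none was higher in *Gli1*+ *Pdgfra* cells, against 10.2% and 4.54% of all genes. In *Gli1*- cells 27 were lower and none higher (5.98% and 5.21%). *Irf1* was higher in both fractions, by less than 2-fold, with log2 ratios of 0.83 (0.79 to 0.87) and 0.55 (0.51 to 0.59). *Samhd1* had 0.13 (0.06 to 0.20) in *Gli1*+ cells and -0.07 (-0.14 to -0.01) in *Gli1*- cells. The 22 members lower in *Gli1*+ cells at 21 dpi than in uninjured tendon were all among the 28 of *Gli1*- cells, so that 22 of 32 with enough UMIs in both were lower in both, against 9.13% of all genes, and the 13 outside this set were *Ifit3*, *Irf1*, *Ifi27*, *Ifi44*, *Oas1a*, *Mx1*, *Bst2*, *Rtp4*, *Ifitm3*, *Lgals3bp*, *Zbp1*, *Eif2ak2* and *Samhd1*. Values at 7 and at 21 dpi share the uninjured library as their reference.

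The sex of the cells moved with time. Within female cells, *Gli1*+ *Pdgfra* cells at 21 dpi had 24 of 32 members lower and none higher than uninjured (15.1% and 9.27% of all genes), with a member median of -1.73. Within male cells, 8 members were higher and 6 lower at 7 dpi in *Gli1*+ cells (14% and 16.5%), and 3 were higher and 6 lower in *Gli1*- cells (14.6% and 14.9%). In the uninjured *Gli1*+ library, female and male *Pdgfra* cells differed by at least 2-fold for 1 of 31 members (*Oasl1*, higher in female cells), against 1.42% of genes higher and 1.73% lower in female cells. For *Gli1*- cells at 21 dpi against uninjured, and for 21 against 7 dpi, no sex was shared and the difference cannot be told apart from one between male and female cells. Without the *Pdgfra* cells that carried *Krt5* or *Krt14* UMIs, 22 members were lower at 21 dpi in *Gli1*+ cells (15.5% of all genes) and 28 in *Gli1*- cells (15.1%), as with them, and none was higher (7.39% and 12.2%). At 7 dpi in *Gli1*+ cells that comparison could not be made, and the summed level of 5 epidermal markers in *Pdgfra* cells was 120, 2128 and 398 at 0, 7 and 21 dpi in *Gli1*+ and 2.41, 53.3 and 67.8 in *Gli1*- cells. The part of epidermal RNA in the 7 dpi values was not tested.

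*Gli1*+ *Pdgfra* cells held less of most members than *Gli1*- *Pdgfra* cells. In uninjured tendon 7 of 35 were lower at least 2-fold and none was higher (4.64% and 9.31% of all genes), with a member median of -0.64 beside 0.09 over all genes. At 7 dpi 3 of 35 were lower and none higher (1.79% and 4.24%, median -0.31), and at 21 dpi 1 of 32 was lower and none higher (1.51% and 1.58%, median -0.32). Without the *Pdgfra* cells that carried *Krt5* or *Krt14* UMIs, the member median at 21 dpi was -0.19, with 2 of 32 lower (1.77% of all genes). The counting interval at 21 dpi then lay below 0 for 14 members, against 23 with those cells. In uninjured tendon the median without them was -0.61. *Rsad2* was lower at least 2-fold at all 3 times, with log2 ratios of -2.14 (-2.66 to -1.66), -1.15 (-1.39 to -0.92) and -1.64 (-2.19 to -1.11). *Gbp2* had -1.81 (-1.96 to -1.67), -0.81 and -0.39 at the same times. *Stat2*, *Ifi27l2a*, *Samhd1*, *Mx2* and *Oasl1* went the other way in uninjured tendon, from 0.26 to 0.57. Endothelial markers were also lower in the *Gli1*+ than in the *Gli1*- *Pdgfra* cells, with sums of 120.5, 26.6 and 27.7 against 199, 62.3 and 63.6 over 7 markers, *Cdh5* itself being at 0 by definition. Sums of 4 mural markers were 27.6, 42.0 and 52.2 against 229, 99.3 and 162, and those of 3 red-cell markers 8.96, 8.28 and 1.57 against 134, 41.0 and 41.1. Epidermal markers went the other way, with sums over 5 markers of 120, 2128 and 398 in *Gli1*+ against 2.41, 53.3 and 67.8 in *Gli1*- cells. The part of these lists in the differences was not tested. The uninjured libraries also differed in sex, as given above, and in immune markers (51.4 in *Gli1*+ and 20.6 in *Gli1*- cells over 10 markers).

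For the level of the response in single cells, 19 genes that are the most typical interferon targets (*Isg15*, the 4 *Ifit* genes, *Irf7*, *Ifi44*, *Ifih1*, the *Oas* and *Oasl* genes, *Mx1*, *Mx2*, *Rsad2*, *Usp18*, *Rtp4*, *Cmpk2*, *Zbp1* and *Xaf1*) were summed. Their sum in *Pdgfra* cells was 234 (226 to 241), 329 (324 to 333) and 67.4 (65.3 to 69.5) CPM in *Gli1*+ and 368, 404 and 87.6 in *Gli1*- cells. These correspond to log2 ratios to uninjured of 0.49 and -1.79 for the *Gli1*+ fraction, against 0.13 and -2.07 for the *Gli1*- fraction. After each cell was thinned to 2000 UMIs, 2.92% (2.14 to 3.88) of uninjured, 5.44% (4.80 to 6.13) of 7 dpi and 0.490% (0.317 to 0.722) of 21 dpi *Gli1*+ *Pdgfra* cells had UMIs of 3 or more of the 19. The *Gli1*- shares were 4.37%, 7.93% and 0.885%. The 7 dpi shares were thus the highest and the 21 dpi shares the lowest in each fraction; the intervals cover the counting of cells within a library and not the spread between libraries. Thinning left out 15 to 100 *Pdgfra* cells per library. No cell type present is known to lack these genes, so no background share of these genes from free RNA is given. For other genes of leukocytes, *Cd3g* and *Cd3e*, which T cells use, stood at 2.88 and 0.96 in *Pdgfra* cells of the uninjured *Gli1*+ library, against 367 and 210 in its *Ptprc* cells. The largest number of the 19 genes seen in 1 unthinned *Pdgfra* cell was 8 to 13 over the libraries.

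**Figure D3:**
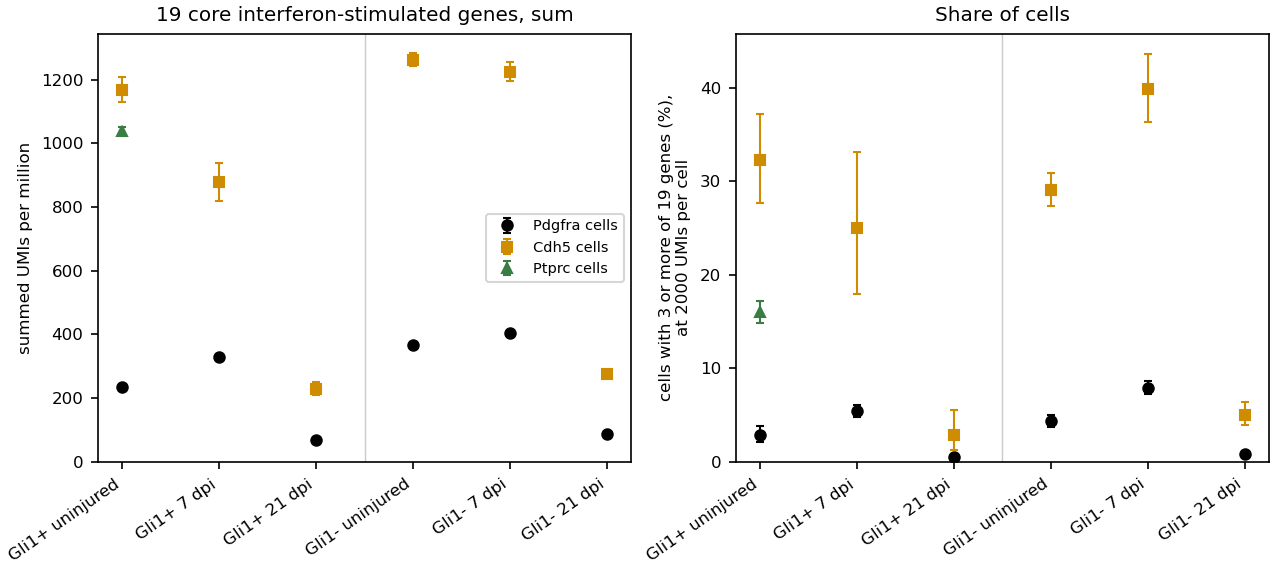
Left, summed level of the 19 core genes by cell type and library, in CPM; right, percent of cells thinned to 2000 UMIs that had UMIs of 3 or more of the 19. Bars are exact 95% counting intervals, and types with under 50 cells in a library are left out. *Cdh5* cells sit above *Pdgfra* cells in every library, and both types have their lowest values at 21 dpi.

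Endothelial cells held more of most members than *Pdgfra* cells of the same library. Of the members with enough UMIs, 25, 19 and 20 were higher at least 2-fold in *Cdh5* cells of the *Gli1*+ libraries at 0, 7 and 21 dpi (13.1%, 9.94% and 15.3% of all genes) and 22, 22 and 18 in the *Gli1*- libraries (18%, 13% and 15.4%). Lower were 1, 1 and 2 (11.8%, 4.69% and 11.5% of all genes) and 1, 1 and 2 (13.8%, 8.25% and 14.4%). Member medians of the log2 ratio were 1.71, 1.31 and 1.26 and 1.36, 1.45 and 1.11, beside 0.11 to 0.21 over all genes. *Rsad2* was among the first 3 genes by this ratio in all 6 libraries. *Rsad2* stood at 150, 63.0 and 22.0 CPM in *Cdh5* cells of *Gli1*+ libraries and at 128, 99.0 and 30.4 in *Gli1*- libraries, with log2 ratios over *Pdgfra* cells of 3.53 to 5.91. *Isg15* stood at 215, 161 and 52.3 and at 213, 171 and 58.0. *Ifi44* stood at 26.4, 32.5 and 10.5 and at 44.1, 58.6 and 4.81, above the *Pdgfra* cells of every library. *Ifit2* stood at 74.2, 54.9 and 4.58 and at 84.3, 88.7 and 7.43, *Cmpk2* at 38.1, 19.3 and 3.21 and at 30.8, 21.7 and 6.56, *Gbp7* at 117, 156 and 31.2 and at 185, 213 and 36.6, and *Oasl1* at 31.6, 11.2 and 5.50 and at 17.5, 18.9 and 7.61. *Ifi27l2a* was the opposite, lower in *Cdh5* than in *Pdgfra* cells of every library, with log2 ratios of -0.60 to -2.20. In the uninjured and 7 dpi *Gli1*- libraries another member had the lowest ratio, at -2.435 and -2.565.

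At 21 dpi most members were also lower in endothelial cells. In *Cdh5* cells 26 of 31 members were lower and none higher at 21 dpi in *Gli1*+ libraries (11% and 6.22% of all genes) and 26 of 34 were lower and none higher in *Gli1*- libraries (13% and 9.18%), with medians of -1.90 and -2.01. Between the fractions, *Cdh5* cells of *Gli1*+ libraries had 0 of 34 members higher and 1 lower in uninjured tendon (5.99% and 3.67% of all genes), 0 of 33 either way at 7 dpi (2.45% and 2.35%), and 1 of 31 higher and 2 lower at 21 dpi (1.69% and 2.05%). At 7 dpi 2 were higher and 6 lower in *Gli1*+ (9.15% and 14.2%) and 2 were higher and none lower in *Gli1*- libraries (9.48% and 10%). The *Gli1*- pair at 7 dpi was *Zbp1* (1.77) and *Lgals3bp* (1.18). From 7 to 21 dpi, 19 of 27 and 26 of 33 were lower and none was higher (6.19% and 5.33% of all genes lower, 5.8% and 3.09% higher). *Ifit2* had the lowest ratio to uninjured in *Gli1*+ *Cdh5* cells at 21 dpi, -4.02, and *Ifit3b* in *Gli1*- *Cdh5* cells, -3.59. *Ifitm3* was the exception in *Gli1*+ libraries, at 1396, 2840 and 2266, and stood at 2983, 3848 and 2460 in *Gli1*- libraries. The sum of the 19 core genes in *Cdh5* cells was 1168, 877 and 229 in *Gli1*+ and 1263, 1225 and 277 in *Gli1*- libraries. Thinning left out more of these shallower cells, 30 of 426, 28 of 164 and 26 of 305 in *Gli1*+ libraries and 757 of 3394, 264 of 980 and 325 of 1691 in *Gli1*- libraries. Both types of a library share its free RNA, and *Cdh5* cells held mesenchymal markers at 4262, 16518 and 4997 and at 2288, 17061 and 8336, as well as epidermal markers at 5095 in the 7 dpi *Gli1*+ library. Endothelial markers in *Cdh5* cells, with *Cdh5* itself present by definition, summed to 3600.5, 2116 and 3657 and to 4468.5, 3072 and 3846. In the same cells mural markers summed to 1194, 605 and 322 and to 1918, 613 and 406, and the stress list to 22724, 13828 and 14873 and to 19179, 14688 and 11865. Immune markers, with *Ptprc* at 0 by definition, summed to 46.7, 14.2 and 16.0 and to 43.1, 24.7 and 16.3. Red-cell markers summed to 80.0, 15.3 and 15.1 and to 391, 142 and 40.2, and skeletal muscle markers to 73.8, 37.6 and 7.79 and to 106, 13.7 and 7.08. The mural, stress, immune, red-cell and skeletal muscle lists were each lower at 21 dpi than in uninjured tendon. Mesenchymal and epidermal markers were higher at 21 dpi, the latter at 1478 against 219 in *Gli1*+ and 86.8 against 3.99 in *Gli1*- libraries. The part of all these lists in the member values was not tested. Within female cells the count at 21 dpi in *Gli1*+ *Cdh5* cells was 25 of 30 lower and none higher (10.3% and 7.2% of all genes). Across both types and both fractions, 19 of the 30 members with enough UMIs throughout were lower at least 2-fold at 21 dpi in all 4 comparisons with uninjured tendon, against 2.42% of all genes, where both types of a fraction came from the same libraries: *Isg15*, *Ifit1*, *Ifit2*, *Irf7*, *Irf9*, *Ifi27l2a*, *Ifi35*, *Oasl1*, *Oasl2*, *Mx2*, *Rsad2*, *Usp18*, *Xaf1*, *Parp14*, *Gbp2*, *Gbp3*, *Gbp7*, *Trim30a* and *Cmpk2*.

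Leukocytes could be described in the uninjured *Gli1*+ library only. Compared with its *Pdgfra* cells, the *Ptprc* cells had 12 of 34 members higher and 3 lower (22.6% and 26.2% of all genes), and compared with its *Cdh5* cells 4 of 35 higher and 22 lower (18.8% and 24.6%). *Oasl1* stood at 117 in *Ptprc*, 31.6 in *Cdh5* and 3.46 in *Pdgfra* cells, *Isg15* at 294, 215 and 17.6, *Ifit1* at 193, 96.8 and 16.1, and *Mx1* at 11.5, 0.69 and 0.58. For *Mx1* the *Ptprc* level was far above that of the other types in this library. *Ifitm3* was lower in *Ptprc* cells (132). Among them, 2976 cells had a CD3 UMI (T cells) and 432 had none but had a myeloid marker UMI. Myeloid cells held *Oasl1* at 453 and *Ifi27l2a* at 1138, and T cells at 54.1 and 271, while T cells held more *Isg15* (293 and 141), and 14 of 34 members were lower and 1 higher in T cells (21.7% and 16.4% of all genes). *Ifng*, the gene of interferon gamma, named here after its values were seen, stood at 58.6 in *Ptprc* cells and 1.28 in *Pdgfra* cells of that library.

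Among *Pdgfra* cells, those with a UMI of *Scx*, the transcription factor of the tendon lineage, held less of the interferon-stimulated genes than those without. In *Gli1*+ libraries 8 of 31, 5 of 34 and 15 of 29 members were lower at least 2-fold at 0, 7 and 21 dpi and none was higher (7.23%, 2.98% and 6.25% of all genes lower, 3.5%, 0.88% and 1.24% higher). In *Gli1*- libraries 12 of 35 and 8 of 31 were lower at 7 and 21 dpi and none was higher (5.02% and 6.23% lower, 1.57% and 1.09% higher), and the uninjured library had under 50 *Scx* cells. Member medians were -0.52, -0.64 and -1.0 for *Gli1*+ libraries, then -0.86 and -0.54 for *Gli1*- libraries, beside -0.11 to 0.02 over all genes. The core sum at 21 dpi in *Gli1*+ was 36.6 in 1149 cells with *Scx* and 80.8 in 4039 cells without. Cells with an *Scx* UMI were also deeper, with medians of 11374 to 16606.5 UMIs against 8543 to 10600.5, and the part of depth was not tested. *Trim30a*, whose product restrains inflammatory signalling, was lower at least 2-fold in cells with *Scx* in all 5 libraries, from -2.38 to -1.18.

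Cells with a UMI of *Pi16* or *Dpp4*, markers of fibroblast progenitors that surround vessels and sheaths, were compared with those without in the same way. In *Gli1*+ libraries 1 of 31, 3 of 34 and 10 of 29 members were higher at least 2-fold (2.21%, 1.4% and 2.4% of all genes), and in *Gli1*- libraries 1 of 34, 1 of 35 and 1 of 31 (2.17%, 0.797% and 1.69%). Lower were 1, 0 and 0 in *Gli1*+ (5.91%, 0.831% and 5.4% of all genes) and none in *Gli1*- libraries (3.13%, 0.94% and 3.7%), the 1 being *Oasl1* (-1.38). A count of 1 is near the share of all genes. Member medians were 0.24, 0.29 and 0.68, then -0.04, 0.11 and 0.48, beside -0.08 to -0.03 over all genes. *Ifi27l2a* had the highest ratio in every library, with log2 values of 1.77, 1.53 and 2.13 in *Gli1*+ and 1.33, 1.11 and 2.03 in *Gli1*- libraries. At 21 dpi in *Gli1*+ cells *Trim30a* (1.47), *Bst2* (1.35) and *Isg15* (1.19) were also higher at least 2-fold, and the core sum was 84.5 in 2796 cells with and 49.0 in 2392 cells without these UMIs, at medians of 9464 and 10027.5 UMIs per cell. In uninjured tendon the cells with these UMIs were deeper, at 10027 against 7787 in *Gli1*+ and 6689 against 5433 in *Gli1*-. The medians were 10407 and 10701.5 in *Gli1*+ at 7 dpi, 11944 and 11664 in *Gli1*- at 7 dpi, and 9318.5 and 9390 in *Gli1*- at 21 dpi. The part of depth was not tested.

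**Figure D4:**
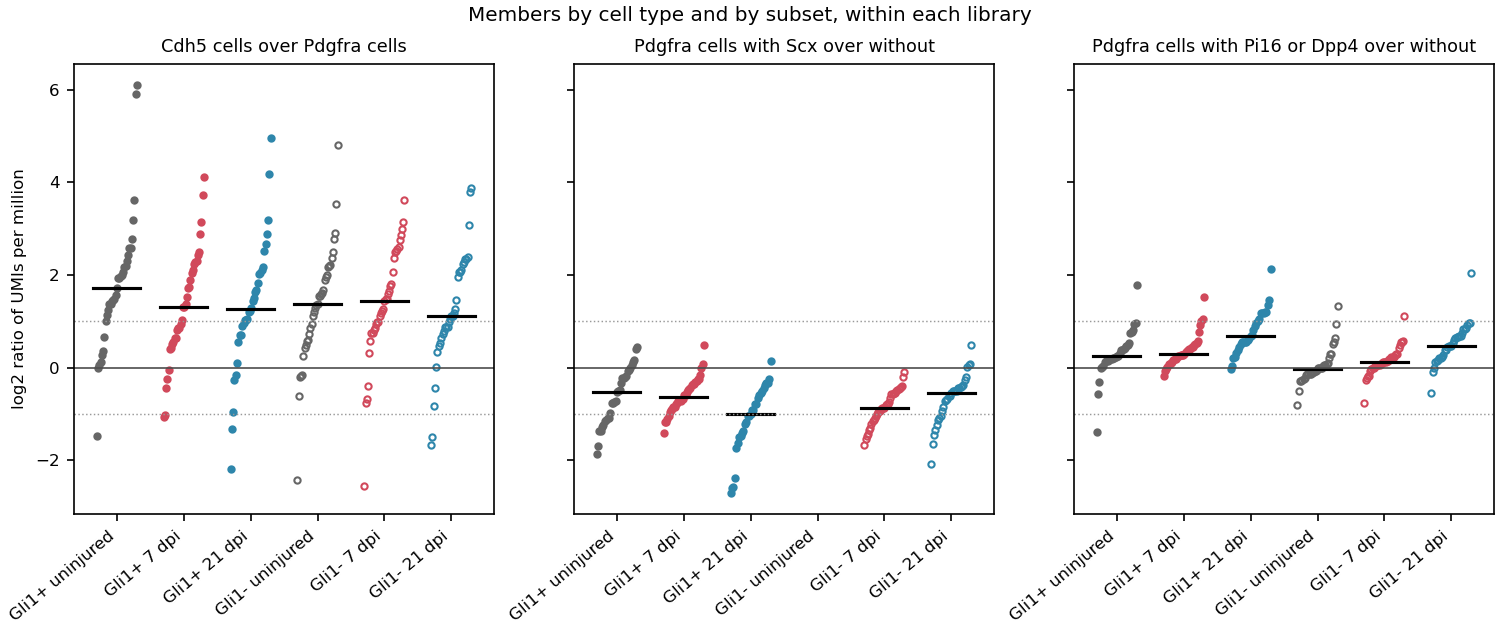
Log2 ratio of CPM for each member (points, sorted; filled, *Gli1*+; open, *Gli1*-) within each library, for *Cdh5* over *Pdgfra* cells, for *Pdgfra* cells with over without *Scx*, and for those with over without *Pi16* or *Dpp4*; black bars are medians, dotted lines mark 2-fold, and the uninjured *Gli1*- library has no *Scx* comparison. Medians lie above 1 on the left (1.11 to 1.71), below 0 in the middle (-1.0 to -0.52) and between -0.04 and 0.68 on the right.

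The wider pathway was read from 100 other genes. In *Pdgfra* cells 9 of 78 with enough UMIs were higher and 17 lower at 7 dpi in *Gli1*+ cells, and 6 of 80 were higher and 23 lower in *Gli1*- cells (all genes, 14% and 17.7%, then 14.1% and 14.8%). At 21 dpi 1 of 76 was higher and 30 lower in *Gli1*+, and 1 of 78 was higher and 46 lower in *Gli1*- cells (all genes, 8.64% and 17%, then 12.8% and 15.1%). Of 60 further interferon-responsive genes, 26 of the 50 with enough UMIs were lower in *Gli1*+ cells and 39 of 52 in *Gli1*- cells, beside the same shares of all genes. None of the 11 interferon genes had 50 UMIs in any of these comparisons. By level, the leading pathway genes were *Ifitm2*, *Socs3*, *Jak1*, *Stat3*, *B2m*, *Ifi205*, *Ly6e* and *Ifi207*. *Socs3*, a feedback inhibitor of cytokine receptors, stood at 1045, 473 and 871 in *Gli1*+ and at 2290, 641 and 618 in *Gli1*- cells. *Ifi207*, of the family of DNA-binding p200 proteins, stood at 224, 31.7 and 51.8 and at 479, 50.7 and 55.4, below uninjured at both times in both fractions. *Ifitm2*, the neighbour of *Ifitm3*, was highest at 7 dpi in both fractions (667, 1079 and 1009, and 1055, 1289 and 1186). *B2m*, the light chain of MHC class I, differed by up to about 2-fold (426, 211 and 292, and 389, 248 and 328). *Jak1* and *Stat3*, which relay many cytokine signals, were lowest at 7 dpi (620, 327 and 491 and 619, 370 and 533 for *Jak1*), and *Ly6e* was highest then (141, 267 and 162, and 213, 340 and 207). *Ifngr1*, a receptor chain for interferon gamma, was chosen after its values were seen and stood at 191, 51.0 and 79.4 and at 288, 60.2 and 87.6.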

How the data were processed

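Per the deposited files, *Gli1*-CreERT2; Ai9 tendon cells sorted into *Gli1*+ and *Gli1*- were profiled with Chromium 3' v3 chemistry as 6 libraries, 1 per condition. The authors made the deposited matrices of UMI counts; their processing notes name Cell Ranger 3.1.0, STAR and mm10, whereas the file headers name Cell Ranger 9.0.0. Cells were kept with at least 200 genes, 1000 UMIs and log10 genes of at least 0.7 times log10 UMIs, and at most 5% mitochondrial and 5% hemoglobin UMIs. The study's doublet caller was replaced by Scrublet (scanpy 1.11.5), which removed 0.8% of cells per 1000 cells passing the filters. Kept UMIs were 53564928 to 107887022 per library.

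UMIs were summed per library and type and divided by the total of the type (per 1000000). CPM intervals are exact Poisson, shares exact Clopper-Pearson, and log2 ratios exact binomial given the summed counts; all cover counting error only, and nothing was tested between conditions. The scripts were tested on simulated data. edgeR 4.0.16 supplied TMM factors alone. T cells had a *Cd3d*, *Cd3e* or *Cd3g* UMI, and myeloid cells a *Lyz2*, *Cd68* or *Csf1r* UMI and none of these.

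Values were given for the 10 members with the highest mean CPM in *Pdgfra* cells, up to 5 with the largest ratio each way in each comparison with uninjured tendon, the first 3 by ratio in *Cdh5* and *Ptprc* cells, and up to 8 pathway genes by CPM. The others were given by level as well. For *Oas1a* and *Ifit3b* the ratio in *Pdgfra* cells was given in place of the level. The members and lists were chosen with earlier results of these data known. Promoters came from RefSeq (GRCm38.p6) and transcript ends from GENCODE M21; *Zbp1*, *Ifi27l2a*, *Parp14*, *Mx2*, *Usp18*, *Ifi27*, *Rtp4* and *Mx1* had no promoter entry. Alternatives were scaling, cell filters, type definitions, thinning and single sexes, with the cells free of keratin UMIs and the counts within a sex added after seeing the data.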

Additional observations from a re-analysis of the deposited data

Results flagged for a closer look

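For 4 genes the log2 ratio to uninjured in *Pdgfra* cells had opposite signs in the *Gli1*+ and *Gli1*- fractions, with at least 50 UMIs and with both counting intervals excluding 0. The share of all genes that pass this rule is not given, so whether the count is unusual cannot be told. *Ifi27l2a* at 7 dpi had -0.15 in *Gli1*+ and 0.65 in *Gli1*- cells, and *Rsad2* at 7 dpi had 0.55 and -0.44. *Ifi27* at 21 dpi had 0.14 and -0.23, and *Ifitm3* at 21 dpi had 0.15 and -0.40. With 1 library per condition the difference between the fractions was not tested. Scaling by TMM turned the *Ifi27l2a* value of *Gli1*+ cells to the side of the *Gli1*- value. The uninjured *Gli1*+ library, the reference of the *Gli1*+ values, held female and male cells, and the uninjured *Gli1*- library held male cells.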

How the results depend on the processing

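No paired analysis was possible because the results come from no test: each condition was 1 library, with no replicate number. A fit of fraction with time as a block over the 6 libraries was not made. The summed log2 ratios of all 35 genes in *Pdgfra* cells are given in the order *Gli1*+ 7 and 21 dpi, *Gli1*- 7 and 21 dpi against uninjured, then *Gli1*+ against *Gli1*- at 0, 7 and 21 dpi; they were 0.31, -0.46, 0.0032, -0.76, -0.54, -0.24 and -0.23. Without *Ifitm3* they were -0.11, -1.09, -0.17, -1.25, -0.29, -0.22 and -0.13, so that *Gli1*+ at 7 dpi reversed. With TMM they were 0.55, -0.061, 0.11, -0.595, -0.73, -0.29 and -0.20, and over all kept cells 0.33, -0.43, -0.18, -0.91, -0.88, -0.37 and -0.40. Those that moved by more than counting error were, with at least 2 *Pdgfra* UMIs, 0.34, -0.43, 0.037, -0.72, -0.52 and -0.22 (the first 6); with all *Pdgfra* cells, whatever their other markers, -0.026 and -0.78 (*Gli1*- 7 and 21 dpi) and -0.57 (fractions, uninjured); without cell filters, 0.28, -0.49, -0.0085 and -0.80 (the first 4) and -0.25 (fractions, 7 dpi); in male cells, 0.24 and -0.039 (7 dpi) and -0.48 and -0.21 (fractions, uninjured and 7 dpi); and without keratin UMIs, -0.43 (*Gli1*+ 21 dpi), 0.017 (*Gli1*- 7 dpi), -0.52 and -0.19 (fractions, uninjured and 21 dpi). The cause was not tested. A 1.5-fold limit gave 25 and 17 members at 7 dpi in place of 13 and 9, by its own construction. The shares of cells with 3 or more core genes were 20.3%, 39.1%, 3.84%, 22.9%, 49.98% and 5.29% without thinning and, for 2 or more genes, 8.56%, 14.9%, 1.88%, 12.5%, 19.7% and 2.25%, for *Gli1*+ at 0, 7 and 21 dpi and then *Gli1*-, and without cell filters the *Gli1*- share at 21 dpi was 0.63%. The order of the 3 times within a fraction was the same in each. *Gli1*+ cells without keratin UMIs at 7 dpi (14 cells) and *Gli1*- cells of 1 sex at 21 dpi against uninjured were not run. Depth limited *Mx1*, *Oas1a*, *Ifi44*, *Oasl1*, *Ifit3b*, *Rsad2*, *Zbp1*, *Mx2*, *Usp18* and *Cmpk2*, each with under 50 UMIs in at least 1 comparison.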

Other observations

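Cells that carried none of *Pdgfra*, *Cdh5* and *Ptprc* were given no type. In them the sum of the 19 core interferon genes was 174, 233 and 57.6 CPM in the *Gli1*+ libraries at 0, 7 and 21 dpi, and those labelled *Gli1*- held 512, 423 and 99.4. Among these cells, those with UMIs of both *Krt5* and *Krt14* held a core sum of 27.3 (111 cells), 216 (3330 cells) and 24.0 (890 cells) in the *Gli1*+ libraries and 18.2 (60 cells) in the 21 dpi *Gli1*- library. In the cells with both keratins, *Isg15* stood at 4.41, 44.4 and 1.58 in the *Gli1*+ libraries. Keratin RNA was widespread at 7 dpi, where 14 of 4674 *Gli1*+ *Pdgfra* cells had no *Krt5* or *Krt14* UMI. The rule can thus take in cells of other kinds in that library, and its group need not match those of the other times.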
